A study of Homo sapiens with 120 samples.

Results

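The proteins of the mitochondrial ribosome were followed through HepG2 cells, a human liver carcinoma line, after exposure to titanium dioxide or cerium dioxide nanoparticles. Genes were taken by annotated symbol, MRPL or MRPS followed by a number and an optional letter, with pseudogenes and antisense genes left out. This gave 76 of the 20046 genes measured, 48 with a large subunit symbol and 28 with a small subunit symbol. MRPL27 was not analysed here. Each RNA sample came from 1 flask of cells exposed for 72 h and was hybridised to 1 Illumina HT-12 bead array. The arrays used form 25 groups, namely 8 untreated control flasks and 8 coded materials at 0.3, 3 and 30 µg/mL. Groups at 0.3 µg/mL hold 4 arrays and the others 5, except M at 3 µg/mL with 4. By the labels the cerium dioxide powders are C, D and L from Alfa Aesar and B and M from Nano Amor, and the titanium dioxide powders are I from Acros, H from Mknano and A from Degussa. The series counts fewer formulations than the 8 codes, so each code was kept as a material of its own. HepG2 is a tumour line and not a primary hepatocyte culture, and 9 of 9 measured hepatocyte markers, among them ALB and APOA1, lay at or above the 96.9th percentile of gene levels.

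The mitochondrial ribosome translates the few messenger RNAs of the mitochondrial genome, which code for core subunits of the respiratory chain and of ATP synthase. Its RNA is made inside the organelle, but every one of its proteins is encoded in the nucleus, made in the cytosol and imported. Part of the proteins descend from the bacterial ribosome and the rest were added during mitochondrial evolution. In liver cells, with their many mitochondria, this machinery is needed to keep oxidative phosphorylation supplied. By structure the 76 genes divide into 29 large subunit proteins with a bacterial counterpart, 21 mitochondria-specific large subunit proteins, 16 small subunit proteins with a bacterial counterpart and 10 mitochondria-specific small subunit proteins. MRPS30 and MRPS18A carry small subunit symbols but sit in the large subunit.

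The promoters of the 6 members that passed the test against control most often are shown because each of these members fell in 6 to 9 of the 24 comparisons. All 6 are large subunit genes. Each line runs 5′ to 3′ on the gene's strand, from 200 bases before to 30 bases after a RefSeq start on GRCh38.p14. The places are chr6:159789612-159789841 on the plus strand for MRPL18, chr2:99180984-99181213 (plus) for MRPL30, chr21:25607452-25607681 (minus) for MRPL39, chr12:93467314-93467543 (plus) for MRPL42, chr14:22829687-22829916 (plus) for MRPL52 and chr5:154940873-154941102 (plus) for MRPL22. Capitals mark exact matches, on either strand, to the letters CCGGAAGT (ETS family), GCGC and TGCGC 1 base apart (NRF1) or AAGATGGCG (YY1).
MRPL18: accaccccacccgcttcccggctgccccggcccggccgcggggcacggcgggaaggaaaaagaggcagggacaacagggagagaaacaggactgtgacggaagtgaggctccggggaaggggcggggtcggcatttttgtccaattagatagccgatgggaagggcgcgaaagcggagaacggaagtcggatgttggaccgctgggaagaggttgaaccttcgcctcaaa
MRPL30: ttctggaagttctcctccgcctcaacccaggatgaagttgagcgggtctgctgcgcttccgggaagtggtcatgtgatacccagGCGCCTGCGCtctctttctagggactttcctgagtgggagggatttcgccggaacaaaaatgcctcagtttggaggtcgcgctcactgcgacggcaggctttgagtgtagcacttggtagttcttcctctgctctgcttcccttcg
MRPL39: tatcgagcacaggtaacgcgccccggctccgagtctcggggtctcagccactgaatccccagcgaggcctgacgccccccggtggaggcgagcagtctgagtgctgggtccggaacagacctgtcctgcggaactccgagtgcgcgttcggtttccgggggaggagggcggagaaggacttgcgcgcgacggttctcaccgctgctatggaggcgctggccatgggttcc
MRPL42: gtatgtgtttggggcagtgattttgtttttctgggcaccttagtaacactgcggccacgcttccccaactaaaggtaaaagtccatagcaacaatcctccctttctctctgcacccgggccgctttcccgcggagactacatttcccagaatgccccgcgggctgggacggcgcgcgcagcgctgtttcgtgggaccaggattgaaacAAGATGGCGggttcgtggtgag
MRPL52: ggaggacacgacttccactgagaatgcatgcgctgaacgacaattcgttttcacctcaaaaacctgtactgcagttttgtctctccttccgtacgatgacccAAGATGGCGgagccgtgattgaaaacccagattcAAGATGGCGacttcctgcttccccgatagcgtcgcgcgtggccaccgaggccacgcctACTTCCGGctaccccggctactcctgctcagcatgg
MRPL22: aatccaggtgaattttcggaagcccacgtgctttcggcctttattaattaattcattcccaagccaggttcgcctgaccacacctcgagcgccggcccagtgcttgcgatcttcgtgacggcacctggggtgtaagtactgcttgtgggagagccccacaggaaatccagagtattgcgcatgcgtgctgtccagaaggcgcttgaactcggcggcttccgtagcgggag
MRPL52 holds the YY1 letters at 98 and at 64 bases before the start and the ETS letters, on the reverse strand, at 6 bases before it. In MRPL42 the YY1 letters begin 8 bases after the start, and in MRPL30 the NRF1 letters begin 116 bases before it. In MRPL22 the YY1 letters begin 35 bases after the start, beyond the stretch shown. MRPL18 and MRPL39 hold none of the 3 sets of letters in this window. For MRPL39 the RefSeq gene reaches to base 25607859, upstream of the stretch shown, so its outermost start is not covered.

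RefSeq promoters were matched for 68 members, and all promoters compared below were 300 bases long. The YY1 letters were present in 13 of the 68 (19.1%), against 2.74% of the 15843 protein-coding promoters. The ETS letters were present in 10 (14.7% against 6.19%) and the NRF1 letters in 8 (11.8% against 8.58%). The SP1 letters GGGCGG occurred in 61.8% of the members and 58.5% of all promoters, and the TATA letters TATAAA in 2.94% and 9.63%. The letters searched for different factors can overlap, and a match describes the sequence only. Among the 28 matched members that fell in M at 30 µg/mL, described below, 8 held the YY1 letters, 2 the ETS letters and 5 the NRF1 letters. Among the other 40 the counts were 5, 8 and 3. Without the 9 arrays described below, 15 matched members fell there, and 5, 1 and 4 of them held the letters. These counts were not tested.

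Values are log2 intensities as deposited, already brought to one distribution across arrays, so each change is relative to the other genes of the array. A gene is read by its brightest probe, and levels of different genes are not compared. Several of these genes have processed pseudogenes, and whether a probe also matches such near-identical copies was not checked. A change is given as log2 change ± SE against the 8 controls, and a gene rose or fell where limma's Benjamini-Hochberg adjusted p over all genes was under 0.05. The p-values measure the spread between flasks. In bulk RNA, fewer cells with a transcript and less transcript per cell cannot be told apart, and nothing here measures protein. In a principal component analysis of all genes, 9 arrays lay 11.01 or more median absolute deviations from the median on the first component, and the next array at 2.72. These were replicates 3 and 4 of M, 1 and 2 of H, 3 of A and 1 of L at 30 µg/mL, replicate 4 of I at 3 µg/mL and replicate 3 each of I and L at 0.3 µg/mL. What sets them apart was not tested. No control array was among them, and they lie next to each other in the order of deposit. The main counts and changes are therefore also given without them.

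The members fell more often than they rose at 30 µg/mL, and by material the count ran from 0 to 34 of 76. In M, 34 members fell and 6 rose, where 17.4% of all genes passed (6.87% fell and 10.5% rose). In H, 19 fell and 2 rose, with 9.46% of all genes passing (3.56% fell and 5.9% rose). In A, 9 fell and 1 rose, where 8.51% of all genes passed (2.35% fell and 6.16% rose). In L, 6 fell (6.9% of all genes passed, 1.67% fell and 5.23% rose), and in I 4 fell and 1 rose (3.92% passed, 1.3% fell and 2.62% rose). No member passed in B (0.743%), C (0.0649%) or D (0.015%). The share of members called was 52.6% in M, 27.6% in H, 13.2% in A, 7.89% in L and 6.58% in I. All 76 members lie above the median level of genes, and bright genes pass more often on these arrays. The test was therefore also run on the 10023 genes above the median level alone. In M 63.2% of the members passed against 37.9% of those genes, and in H 35.5% against 23.5%. In A the shares were 18.4% and 19.8%, in L 10.5% and 16.7%, and in I 6.58% and 10.3%. In these 3 materials the members were called no more often than those genes. Those genes reach down to the median level and were not matched further to the members, so level is not fully accounted for. Falls alone came to 52.6% of members against 16.6% of those genes in M, 31.6% against 9.98% in H, 17.1% against 6.02% in A, 10.5% against 4.33% in L and 5.26% against 3.75% in I.

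**Figure D1:**
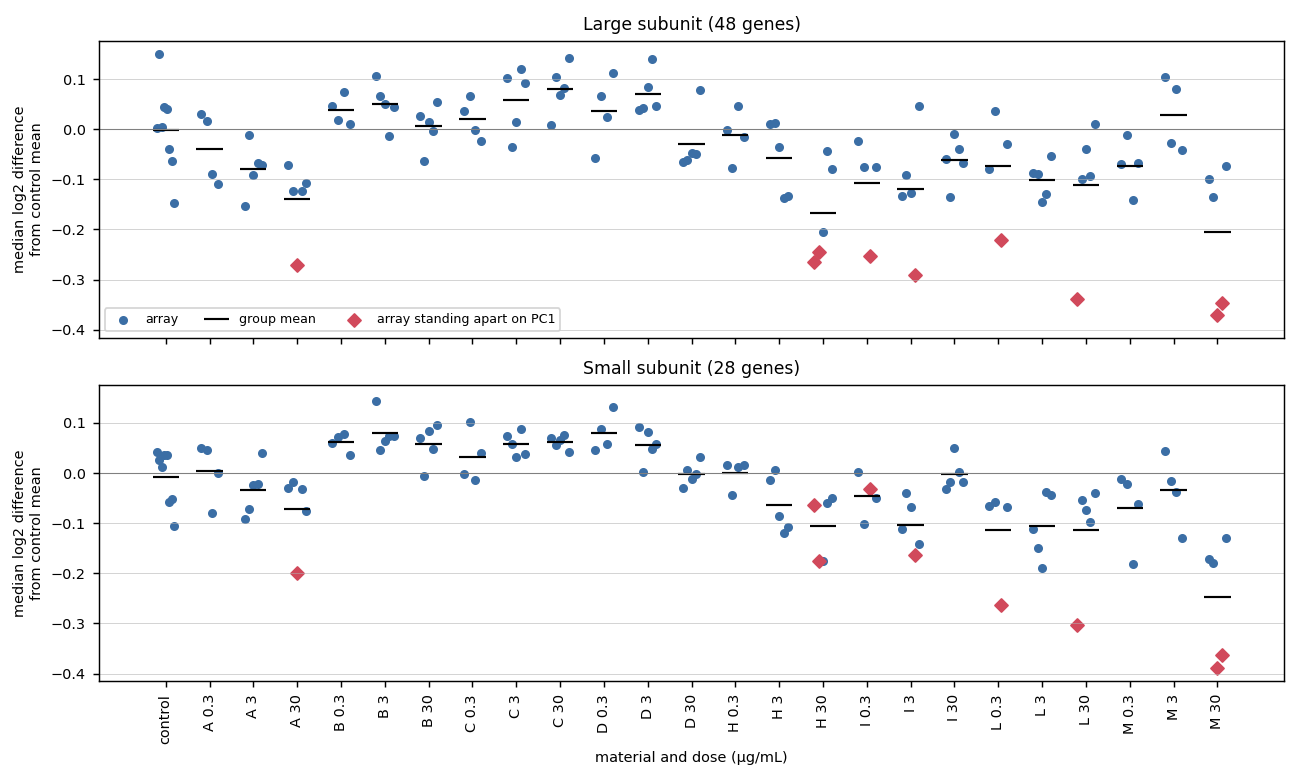
Median log2 difference from the control mean over the 48 large subunit genes (top) and the 28 small subunit genes (bottom), 1 point per array, for control and each material and dose in µg/mL. Black bars are group means and red diamonds the 9 arrays standing apart. The lowest points in both panels are 2 such arrays of M at 30 µg/mL, at -0.37 and -0.35 in the large subunit.

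Taken array by array, the median over all 76 members lay between -0.13 and 0.07 in the 8 controls. In M at 30 µg/mL it was -0.13, -0.15, -0.37, -0.35 and -0.09 in replicates 1 to 5. The 2 arrays that stand apart were the lowest, and of the other 3 replicate 2 lay below every control. Over the 9 arrays the large subunit median lay between -0.37 and -0.22, and over the other 110 arrays between -0.21 and 0.15. The small subunit median lay between -0.39 and -0.03 in the 9 arrays, and between -0.19 and 0.14 in the others, so there the ranges overlap. Without the 9 arrays, 17 members fell and 2 rose in M (background 8.09%), and of the 34 that fell with all arrays 12 fell again. In H the counts without them were 2 and 0 (3.94%), with 1 of the 19 falling again, in B 2 and 9 (4.27%), in C 0 and 4 (1.46%), and in I 9 and 2 (10.2%). In A 8 fell and 1 rose (9.69%), and 4 of the 9 that had fallen did so again. In L 4 fell (6.63%), of which 3 were among the former 6. None of the members that fell at 30 µg/mL in the comparison of any material with control had an estimate above 0 without the 9 arrays. For I, where no array stands apart at this dose, the estimates could not change.

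**Figure D2:**
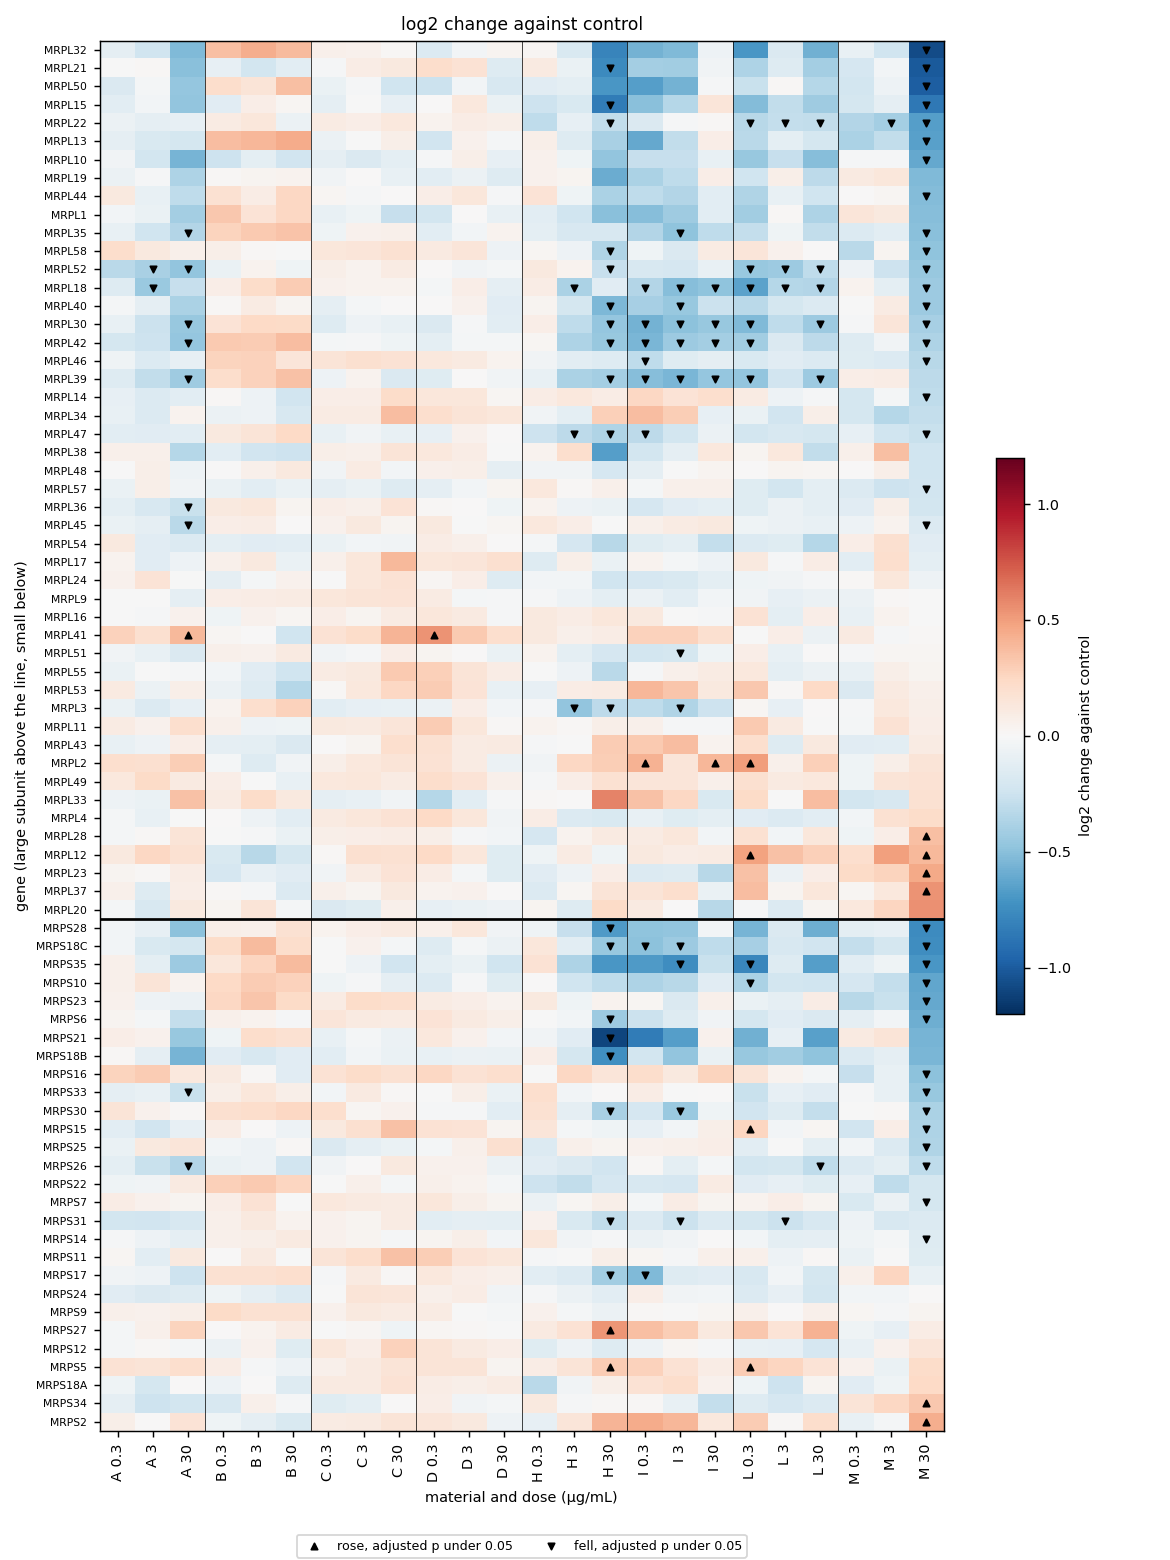
Log2 change against control of each of the 76 genes (rows, large subunit above the line and small below, ordered by the change in M at 30 µg/mL) in the 24 material and dose groups (columns, dose in µg/mL). Triangles mark genes that rose or fell by limma's adjusted p. The column of M at 30 µg/mL holds 34 falls and 6 rises, and the 9 columns of B, C and D hold 1 rise.

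The median change of the 76 members was -0.23 in M, -0.17 in H, -0.12 in L, -0.10 in A, -0.03 in I, -0.03 in D, 0.01 in B and 0.09 in C at 30 µg/mL, while the median over all genes lay between -0.00 and 0.01. With those 9 left out, the members' median was -0.14 in M, -0.10 in H, -0.08 in A and -0.06 in L.

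By symbol, in M the large subunit median was -0.23 and the small subunit median -0.26, and -0.11 and -0.15 without the 9 arrays. Of the large subunit genes 20 of 48 fell in M, and of the small subunit genes 14 of 28, against 11 and 6 without the 9 arrays. In H the large subunit median was -0.19 and the small subunit median -0.10, with 11 of 48 and 8 of 28 falling. Without the 9 arrays the medians in H were -0.12 and -0.07, and 0 large and 2 small subunit genes fell. In A 7 large and 2 small subunit genes fell, in L 5 and 1, and in I 4 and 0, and without the 9 arrays 6 and 2, 3 and 1, and 7 and 2. By structural class, M gave 11 falls among the 29 bacterial-type and 10 among the 21 mitochondria-specific large subunit proteins, and 8 of 16 and 5 of 10 in the small subunit. With those 9 left out, these 4 counts were 7, 4, 3 and 3. The difference between subunits or classes was not tested.

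In M at 30 µg/mL the largest falls belonged to large subunit genes. MRPL32, the counterpart of bacterial L32, whose precursor is trimmed by a mitochondrial protease before it joins the ribosome, lay between 9.42 and 10.24 in the controls, with a median of 9.64. In M it was 9.37, 9.30, 7.37, 7.72 and 9.35, below every control, with replicates 3 and 4 far below the other 3. It fell by 1.07 ± 0.31 on the log2 scale (adjusted p = 0.00879), and without the 9 arrays the change was -0.36 (adjusted p = 0.192). MRPL21, the bacterial L21 counterpart, was 10.04, 9.66, 8.20, 8.39 and 9.91 against 10.03 to 10.42 in the controls (median 10.26). Its replicate 1 lay inside the control range and the other 4 below it. The change was -1.01 ± 0.24 (adjusted p = 0.0015) and, without the 9 arrays, -0.37 (adjusted p = 0.00251). MRPL50, a mitochondria-specific protein, was 10.06, 10.04, 8.26, 7.83 and 10.20 against 10.05 to 10.70 in the controls (median 10.19). Replicates 3 and 4 were far below the other arrays, and the change of -0.99 ± 0.28 (adjusted p = 0.00704) was -0.17 without them. MRPL15, the bacterial L15 counterpart, changed by -0.85 ± 0.25 and by -0.16 without the 9 arrays.

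MRPL22 had the smallest adjusted p of the members in M at 30 µg/mL, and its fall did not rest on those arrays. It is the counterpart of bacterial L22, which lines the tunnel through which the new peptide leaves. The controls ran from 9.78 to 10.44 with a median of 10.18, and M gave 9.61, 9.60, 9.17, 9.56 and 9.63. All 5 arrays of M lay below every control. The change was -0.66 ± 0.09 (adjusted p = 2.11e-08), and -0.56 without the 9 arrays (adjusted p = 2.79e-07). Its second probe fell as well, by 0.57 ± 0.10 on the log2 scale. MRPL22 was also the member that passed in M at 3 µg/mL, with 9.89, 9.95, 9.78 and 9.46 and a change of -0.41 ± 0.10 (adjusted p = 0.0122, background 0.958%). Of those 4 arrays 1 lay below the lowest control. Other large subunit genes that fell in M with and without the 9 arrays were MRPL35, MRPL52, MRPL46, MRPL14 and MRPL57, by 0.23 to 0.50 on the log2 scale with all arrays. The dimmer probes of MRPL35 and MRPL57 did not pass. Those of MRPL35 changed by -0.12 (adjusted p = 0.456) and 0.07 (0.574), and that of MRPL57 by 0.02 (0.914).

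In the small subunit MRPS23, a mitochondria-specific protein, had the smallest adjusted p in M. Its controls ran from 8.34 to 9.24 (median 8.94), and M gave 8.18, 8.31, 8.06, 8.67 and 8.32. Replicate 4 lay within the control range and the other 4 below it. MRPS23 changed by -0.62 ± 0.10 (adjusted p = 8.41e-07), and by -0.65 without the 9 arrays. The MRPS18 paralogs, descended from one bacterial protein, had different values in M. MRPS18C, in the small subunit, was 9.65, 9.72, 9.03, 9.20 and 9.91 against 9.88 to 10.65 in the controls (median 10.23), and fell by 0.74 ± 0.14 on the log2 scale (adjusted p = 2.15e-05). Replicate 5 alone lay inside the control range. MRPS18B, also of the small subunit, changed by -0.55 ± 0.21 and did not pass (adjusted p = 0.0543). MRPS18A, which sits in the large subunit, was 8.82, 8.98, 9.58, 9.60 and 9.24 against 8.61 to 9.52 (median 8.97), a change of 0.24 ± 0.14 (adjusted p = 0.258). Replicates 3 and 4, the arrays that stand apart, were its highest. The difference between the paralogs was not tested.

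**Figure D3:**
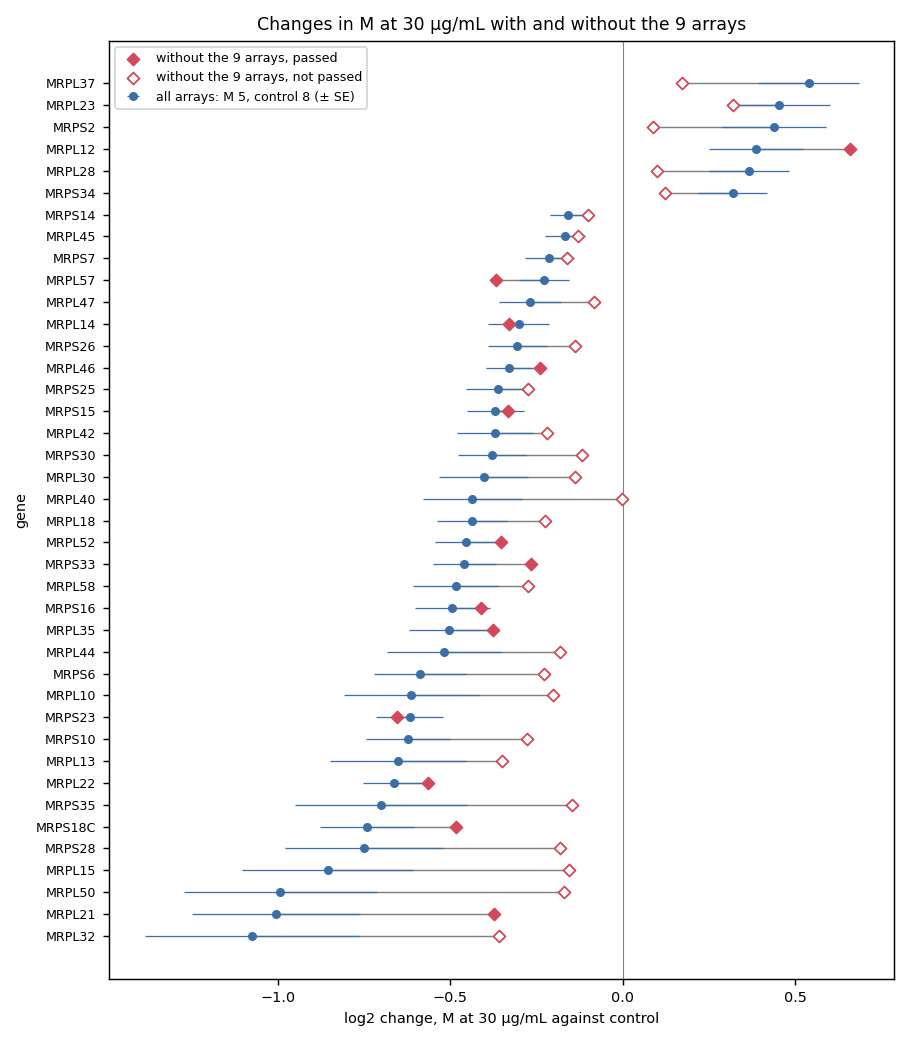
Log2 change in M at 30 µg/mL against control of the 40 members that passed, with all arrays (blue, ± SE) and without the 9 arrays that stand apart (diamonds, filled where the gene passed again). Of the 40, 13 diamonds are filled, and the estimates for MRPL32, MRPL50 and MRPL15 move from near -1 towards 0.

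The 6 members that rose in M were MRPL37, MRPL23, MRPS2, MRPL12, MRPL28 and MRPS34. MRPL37, a mitochondria-specific protein, was 11.34, 11.49, 12.43, 12.24 and 11.42 against 10.95 to 11.48 in the controls (median 11.29). Replicates 3 and 4 were high, replicate 2 just above the controls, and replicates 1 and 5 within their range. It rose by 0.54 ± 0.15 (adjusted p = 0.00461), and the change was 0.17 without the 9 arrays (adjusted p = 0.469). MRPL12, the stalk protein that recruits translation factors and also binds the mitochondrial RNA polymerase, rose too. It was 10.18, 9.93, 9.58, 9.18 and 10.07 against 8.95 to 9.81 (median 9.39), so that replicates 3 and 4 were the low ones. Its change was 0.39 ± 0.14 with all arrays (adjusted p = 0.0372) and 0.66 without the 9 (adjusted p = 0.00265). MRPL23, a counterpart of bacterial L23 at the tunnel exit, rose by 0.45 ± 0.15, and MRPS2, of the bacterial S2 family, by 0.44 ± 0.15. Neither passed without the 9 arrays.

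For 6 of the 76 members (7.89%) the arrays of M and control did not overlap, beside 3.7% of all genes. Here and for H below, that share is not limited to genes of like level. They were MRPL32, MRPL22, MRPS6, MRPS33, MRPS15 and MRPS25, and in each the treated arrays were the lower. Leaving out replicate 3 of M left 16 members past the threshold, and leaving out replicate 4 left 22. Fitted with M at 30 µg/mL and control alone, 9 passed. Such refits change the spread estimate of all genes, so these counts, here and below, are not particular to the members. Of the 27 members read by more than 1 probe, 15 had probes of one sign in M. Of all 27, the brightest probe had been called in 13, and among these another probe was called the same way in 4 and the opposite way in 1. In H the probes of 17 members had one sign, and of 11 called by the brightest probe another probe was called the same way in 1. In A those numbers were 17, 6 and 1, in L 14, 4 and 1, and in I 14, 4 and 0. The gene with opposite calls in M was MRPL44, a mitochondria-specific protein with a ribonuclease fold. Its brighter probe changed by -0.52 ± 0.17 and its dimmer probe, near background, by 0.08 ± 0.03 (adjusted p = 0.0459).

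In H at 30 µg/mL the largest fall was that of MRPS21, the counterpart of bacterial S21. Controls ran from 10.06 to 10.69 (median 10.38), and H gave 8.03, 7.69, 10.12, 10.46 and 10.04. Replicates 1 and 2, which stand apart, were low, and the other 3 were within or just under the control range. The change of -1.11 ± 0.37 (adjusted p = 0.0448) was -0.17 without the 9 arrays. The second MRPS21 probe, with a mean level of 9.13, changed by 0.10 in H (adjusted p = 0.708). MRPL15 gave 7.31, 7.14, 8.95, 8.93 and 8.34 against 8.71 to 9.33 (median 8.99), a change of -0.84 ± 0.25 (adjusted p = 0.0179). Replicates 1, 2 and 5 lay below every control, replicates 1 and 2 the furthest, and the change was -0.24 without the 9 arrays. MRPL21 fell by 0.76 ± 0.24 on the log2 scale. MRPS18B was 10.05, 9.09, 10.41, 10.40 and 10.43 against 10.46 to 11.22 (median 10.73). It fell by 0.73 ± 0.21 on the log2 scale (adjusted p = 0.0132), with all 5 arrays of H below every control, and fell again by 0.40 without the 9 arrays (adjusted p = 0.00838). The second MRPS18B probe, with a mean level of 8.55, changed in the other direction, by 0.20 ± 0.15 (adjusted p = 0.462). MRPS31 was the other member with no overlap, which makes 2.63% of the members beside 0.783% of all genes.

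The 2 members that rose in H were small subunit genes. MRPS27, which carries pentatricopeptide repeats, an RNA-binding fold, was 10.57, 10.83, 9.50, 9.59 and 9.96 against 9.24 to 9.80 in the controls (median 9.59). Replicates 1 and 2 were the high ones. It rose by 0.53 ± 0.17 (adjusted p = 0.0293), and the change without the 9 arrays was 0.13. Its second probe, with a mean level of 9.48, changed by 0.0015 in H (adjusted p = 0.997), and fell in M by 0.64 on the log2 scale (adjusted p = 0.00123), where the brightest probe of MRPS27 did not pass. MRPS5, the bacterial S5 counterpart, rose by 0.31 ± 0.09 (adjusted p = 0.0172), and the change was 0.12 without them. Leaving out replicate 1 alone left 4 members past the threshold in H, and leaving out replicate 2 left 3.

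In A at 30 µg/mL the largest fall was that of MRPL52, a mitochondria-specific large subunit protein. The controls ran from 8.05 to 8.72 with a median of 8.32, and A gave 7.91, 7.94, 7.70, 7.82 and 8.07. Of these 5, 4 lay below every control. It fell by 0.47 ± 0.09 on the log2 scale (adjusted p = 0.000106), and by 0.43 without the 9 arrays. MRPL42, also mitochondria-specific, was 7.87, 7.95, 7.43, 8.12 and 8.14 against 8.05 to 8.72 (median 8.36), with 3 of 5 arrays below every control. It fell by 0.46 ± 0.11 on the log2 scale (adjusted p = 0.00221). MRPL30, the bacterial L30 counterpart, was 7.57, 7.75, 6.53, 7.62 and 7.55 against 7.44 to 8.27 (median 7.87). Only replicate 3, which stands apart, lay below the controls, and the change was -0.46 ± 0.13 with it and -0.24 without the 9 arrays (adjusted p = 0.182). MRPL39, a mitochondria-specific protein related to threonyl-tRNA synthetase, fell by 0.43 ± 0.12 on the log2 scale.

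The member that rose in A was MRPL41, a mitochondria-specific protein also described as a partner of BCL2. It was 10.05, 9.68, 10.07, 9.80 and 9.78 against 9.19 to 10.10 in the controls (median 9.43), and all 5 values lay within the control range. Its change was 0.39 ± 0.11 (adjusted p = 0.00942). Leaving out replicate 3 of A left 2 members past the threshold at 30 µg/mL, and a fit of A and control alone gave 2.

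In I at 30 µg/mL, where no array stands apart, 4 of the large subunit genes fell by 0.41 to 0.48 on the log2 scale. MRPL18, the counterpart of bacterial L18 in the central protuberance, was 9.46, 9.77, 9.76, 9.74 and 9.80, all below the control range of 9.82 to 10.34 (median 10.21). It fell by 0.48 ± 0.10 on the log2 scale (adjusted p = 0.00162). Its second probe changed by -0.10 ± 0.25 (adjusted p = 0.91). MRPL39 was 8.06, 8.33, 8.28, 8.47 and 8.23 against 8.32 to 9.06 (median 8.79), and fell by 0.46 ± 0.12 on the log2 scale (adjusted p = 0.0106). Of these arrays 3 lay below every control. MRPL30 and MRPL42 fell by 0.45 ± 0.13 and 0.41 ± 0.11 on the log2 scale. MRPL2, the bacterial L2 counterpart beside the peptidyl transferase centre, rose, with 9.45, 9.08, 9.23, 9.33 and 9.16 against 8.74 to 9.12 in the controls (median 8.82). That was a change of 0.39 ± 0.12 (adjusted p = 0.0322). Only replicate 2 lay within the control range. Leaving out replicate 1 of I left 1 member past the threshold, replicate 3 of I left 2, and control replicate 3 or 4 left 3.

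In L at 30 µg/mL MRPL39, MRPL30 and MRPL18 fell by 0.43 ± 0.12, 0.43 ± 0.13 and 0.35 ± 0.10 on the log2 scale, with adjusted p of 0.0126, 0.024 and 0.0202. MRPS26, a mitochondria-specific small subunit protein, fell by 0.31 ± 0.09 on the log2 scale (adjusted p = 0.0144). MRPL52 and MRPL22 fell as well. Without replicate 1 of L, which stands apart, 0 members passed, and without replicate 5 there were 10 past the threshold. A fit of L and control alone gave 0.

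In B, C and D at 30 µg/mL 0 members passed in the limma fit. At an unadjusted p under 0.05 there were 18 in B (14 of them above 0), 13 in C (12 above 0) and 1 in D, while 11.4%, 8.72% and 4.69% of all genes reached it. In B the smallest p was that of MRPL42 (0.000957), with a change of 0.37 ± 0.11 and all 5 arrays above the control mean (adjusted p = 0.0789). MRPS22 changed by 0.26 ± 0.09 (adjusted p = 0.142). In C, MRPS15, the bacterial S15 counterpart, was 9.24, 9.40, 9.27, 9.24 and 9.76 against 8.81 to 9.31 in the controls (median 9.03). Its change was 0.35 ± 0.08 (adjusted p = 0.0607), and 2 of the 5 arrays lay above every control. MRPS11, the bacterial S11 counterpart, was 9.54, 9.76, 9.42, 9.71 and 9.68 against 9.03 to 9.76 (median 9.17), within the control range in every array, a change of 0.36 ± 0.09 (adjusted p = 0.112). In D the smallest p values were those of MRPS25 (0.0445) and MRPL41 (0.0581), both with adjusted p of 1. None of the arrays of B and C stands apart, so their changes are the same without the 9 arrays and only the estimate of the spread differs. MRPL42 then passed in B (adjusted p = 0.00876) and MRPS15 in C (adjusted p = 0.0128). Leaving out control replicate 3 gave 3 past the threshold in B, and leaving out control replicate 2 gave 3 in C, replicate 3 of C 2, and control replicate 1 or 5 or replicate 1 of C 1 each.

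At the lower doses the calls lay mainly in I and L. At 0.3 µg/mL 8 members fell and 1 rose in I, where 5.57% of all genes passed (1.57% fell and 4.01% rose). In L 8 fell and 4 rose, where 12.2% passed (3.73% fell and 8.47% rose). In D 1 rose (0.02%), and in the other 5 materials 0 members passed, where 0 to 0.175% of all genes did. At an unadjusted p under 0.05 those 5 had 2 to 9 members, while 2.82% to 7.42% of all genes reached it. Without the 9 arrays the 0.3 µg/mL groups gave 5 falls in I (4.76%), 12 falls and 6 rises in L (16.8%), and 1 member each in B (0.2%), D (0.16%), H (0.195%) and M (0.17%).

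At 3 µg/mL 12 members fell in I, where 7.72% of all genes passed (2.95% fell and 4.77% rose), and 4 in L (4.06%, 1.37% fell and 2.69% rose). In H 3 fell (1.37%, 0.344% fell and 1.02% rose), in A 2 (4.39%, 1.32% fell and 3.07% rose) and in M 1 (0.958%, 0.384% fell and 0.574% rose). In the limma fit 0 members passed in B (0.015%), C (0.00499%) or D (0.00499%), where 15, 8 and 1 members had an unadjusted p under 0.05. Of all genes 6.57%, 3.61% and 4.42% reached that unadjusted p. With the 9 arrays left out, the 3 µg/mL groups gave 8 falls and 1 rise in A (10.4%), 8 falls in H (5.08%), 13 in I (9.8%), 10 and 1 rise in L (10.3%), 4 and 1 rise in M (3.44%) and 3 rises in B (0.444%). In I the count ran from 9 at 0.3 through 12 at 3 to 5 at 30 µg/mL, with median changes of -0.10, -0.12 and -0.03. In L it ran through 12, 4 and 6, with medians of -0.13, -0.10 and -0.12. In M it ran through 0, 1 and 40. The member that rose in D was MRPL41, with 9.90, 10.11, 10.01 and 10.07 against 9.19 to 10.10 (median 9.43), a change of 0.53 ± 0.11 (adjusted p = 0.0497). Of these 4 arrays 1 lay just above every control. In L at 0.3 µg/mL MRPL2 was 9.14, 9.40, 9.37 and 9.50, each above every control (8.74 to 9.12, median 8.82). It rose by 0.50 ± 0.12 (adjusted p = 0.00247). MRPL12 rose there by 0.49 ± 0.15, MRPS5 by 0.31 ± 0.10 and MRPS15 by 0.26 ± 0.09. Of the 52 members that passed in at least 1 of the 24 comparisons, MRPS15 was the one that both rose (L at 0.3 µg/mL) and fell (M at 30 µg/mL).

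**Figure D4:**
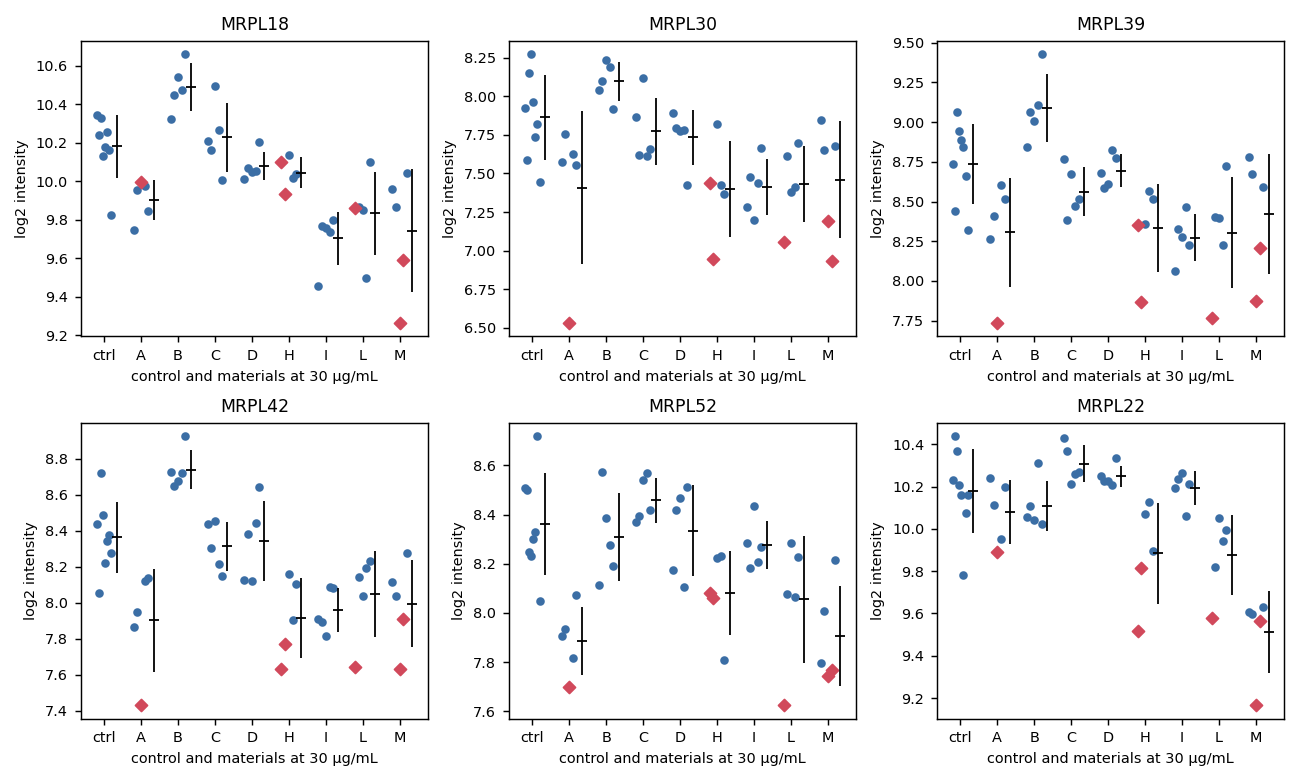
Log2 intensity of the 6 members that passed most often, 1 point per array, in control and in the 8 materials at 30 µg/mL, with mean ± SD beside each group and red diamonds for the arrays standing apart. The 5 arrays of I lie below every control for MRPL18, and the 5 arrays of M for MRPL22.

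Across the 24 comparisons, which share the same 8 controls and are therefore not independent, 52 members passed at least once (34.3% of all genes did). The shares here are over all genes, most of them dimmer than the members, and not over genes of like level. Of these 41 fell only, 10 rose only and 1 did both. Without the 9 arrays 50 passed at least once (36.7% of all genes), of which 27 fell only, 11 rose only and 12 did both. MRPL18 passed in 9 comparisons, MRPL30 in 8, MRPL39, MRPL42 and MRPL52 in 7 each, MRPL22 in 6, and MRPL47 and MRPS18C in 4 each, every time as a fall. For MRPL18 the falls came in A at 3 µg/mL (-0.45 ± 0.10), H at 3 µg/mL (-0.38 ± 0.10), I and L at all 3 doses and M at 30 µg/mL. The largest was L at 0.3 µg/mL, with 9.36, 9.57, 9.98 and 9.25 against 9.82 to 10.34 in the controls (median 10.21). Replicate 3, which stands apart, was here the highest and the only one within the control range. The change was -0.64 ± 0.11 (adjusted p = 6.87e-06), and -0.79 without the 9 arrays (adjusted p = 4.35e-08). In M at 30 µg/mL MRPL18 was 9.96, 9.87, 9.27, 9.59 and 10.04, with replicates 3 and 4 below every control, and its change of -0.44 ± 0.10 was -0.23 without the 9 arrays (adjusted p = 0.218). The second MRPL18 probe, of about the same brightness, fell in M by 1.01 ± 0.25 on the log2 scale (adjusted p = 0.00169).

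MRPL30 fell in A, H, I, L and M at 30 µg/mL, in I also at both lower doses and in L at 0.3 µg/mL. In I at 0.3 µg/mL it was 7.34, 7.16, 7.29 and 7.38, all below the control range of 7.44 to 8.27 (median 7.87). The change was -0.57 ± 0.14 (adjusted p = 0.00467), and -0.57 without the 9 arrays. MRPL42 was 7.85, 7.75, 7.64 and 8.03 in the same group, all below the control range of 8.05 to 8.72 (median 8.36), with a change of -0.55 ± 0.12 (adjusted p = 0.00143). MRPL39 in I at 3 µg/mL was 8.15, 8.37, 8.26, 7.93 and 8.23 against 8.32 to 9.06 (median 8.79). It changed by -0.55 ± 0.12 (adjusted p = 0.00109), and 4 of the 5 arrays lay below every control. MRPL52 fell in A at 3 and 30 µg/mL, in L at all 3 doses and in H and M at 30 µg/mL. In L at 3 µg/mL it was 7.83, 7.66, 7.83, 8.16 and 8.12 against 8.05 to 8.72 (median 8.32), a change of -0.44 ± 0.09 (adjusted p = 0.000908). Of these arrays 3 lay below every control. MRPL47, of the bacterial L29 family, fell in H at 3 and 30 µg/mL, I at 0.3 µg/mL and M at 30 µg/mL, by 0.27 to 0.36 on the log2 scale.

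Leaving out the 9 arrays, MRPL18 fell in 9 comparisons and rose in 1, MRPL22 fell in 7, MRPL30 and MRPL39 in 6, and MRPL42 and MRPL52 in 5. MRPL39 and MRPL42 also rose in 1 each. With all arrays, 24 members passed in none of the 24 comparisons by their brightest probe. They include the large subunit genes MRPL4, MRPL11, MRPL16, MRPL17, MRPL19, MRPL20, MRPL24 and MRPL49. With a small subunit symbol they include MRPS9, MRPS11, MRPS12, MRPS18A, MRPS22 and MRPS24. Dimmer probes of MRPL11, MRPL24, MRPL33 and MRPL43, all among these 24, did pass at 30 µg/mL. A probe of MRPL33 (mean level 9.94) changed by -0.90 in M (adjusted p = 2.74e-05). A probe of MRPL43 (mean level 8.40) changed by -0.38 in I (adjusted p = 0.00903) and -0.33 in L (0.0207). A probe of MRPL11 (mean level 9.43) changed by -0.58 in M (adjusted p = 0.0221) and -0.55 in H (0.0486). A probe of MRPL24 (mean level 8.41) changed by -0.28 in H (adjusted p = 0.0374) and -0.32 in I (0.0237).

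The comparison of 30 with 0.3 µg/mL within a material does not use the controls. In H 10 members fell and 0 rose, where 8% of all genes passed (3.11% fell and 4.89% rose), and in M 6 fell and 3 rose, where 7.61% passed (2.13% fell and 5.48% rose). In the other 6 materials 0 members passed, where 0 to 0.0249% of all genes did and 2 to 10 members had an unadjusted p under 0.05. Of all genes 3.82% to 9.49% reached that unadjusted p. In H the smallest adjusted p was that of MRPS30, a large subunit protein, which fell from a mean of 9.96 to 9.39, a change of -0.57 ± 0.12 (adjusted p = 0.000443). It passed without the 9 arrays too (adjusted p = 0.0147). MRPS31 changed by -0.34 ± 0.09 and MRPL52 by -0.40 ± 0.11 in H. In M, MRPS33 fell from 9.03 to 8.59 (-0.44 ± 0.11, adjusted p = 0.00468), MRPL18 from 10.23 to 9.74 (-0.48 ± 0.12, adjusted p = 0.00583) and MRPL52 from 8.30 to 7.91 (-0.40 ± 0.11, adjusted p = 0.0111). None of these 3 passed in M without the 9 arrays, where 1 member passed (1.66%), and in H 4 did (5.51%). Leaving out replicate 3 or 4 of M, or replicate 1 of M at 0.3 µg/mL, left 12, 11 and 10 members over all 8 materials, and leaving out replicate 1 or 5 of M or 3 of A gave 29, 33 and 29.

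Powders of one oxide from one vendor were compared at 30 µg/mL. The pair from Nano Amor differed in 46 of 76 members, of which 35 were lower and 11 higher in M than in B. Of all genes 24.4% differed, 10.2% being lower and 14.2% higher. The shares in this paragraph are not limited to genes of like level. The median difference was -0.23. MRPS23 differed by -0.84 ± 0.11 (adjusted p = 2.3e-09), MRPS10 by -0.90 ± 0.14 (2.28e-07) and MRPL18 by -0.74 ± 0.11 (2.72e-07), and all 3 passed without the 9 arrays. Then 27 members were lower and 5 higher (15%). Leaving out replicate 3 of M alone gave 28 past the threshold. Among the powders from Alfa Aesar, 13 members were higher and 0 lower in C than in L (5.87% of all genes differed, 1.72% being higher and 4.16% lower), led by MRPL46 with 0.33 ± 0.07 (adjusted p = 0.00207) and MRPS26 with 0.42 ± 0.10 (adjusted p = 0.00219). With the 9 arrays left out, 14 were higher (10.1%). Leaving out replicate 1 of L gave 8, and a fit of those groups alone gave 0. MRPL22 was higher in D than in L by 0.37 ± 0.10 (adjusted p = 0.0107, background 6.32%, with 1.99% higher and 4.33% lower). Between C and D 0 members passed in the limma fit (0.145%). There 12 members had an unadjusted p under 0.05, beside 8.84% of all genes. Without the 9 arrays 4 members passed between D and L (8.7%) and 1 between C and D (1.13%). The single call between D and L became 0 without replicate 1 of L and 8 without replicate 5, with other replicates giving 2 or 3. Comparisons that share L or M share those arrays.

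Over the 8 materials at 30 µg/mL an F test passed in 61 of 76 members, where it passed in 37.6% of all genes. That share is not limited to genes of like level, and bright genes pass more often. Of the large subunit genes 37 of 48 passed and of the small subunit genes 24 of 28. The largest F values belonged to MRPL22 (13.6), MRPS23 (12.4), MRPL42 (11.5), MRPL18 (11.0) and MRPL46 (10.4), with adjusted p from 5.61e-10 to 4.98e-08. With the 9 arrays left out, 62 members passed (39.8%). MRPL46, a mitochondria-specific large subunit protein, was lowest in M, with 9.67, 9.55, 9.52, 9.37 and 9.78 against 9.69 to 10.14 in the controls (median 9.92). Replicate 5 lay within the control range and the other 4 below it, for a change of -0.33 ± 0.07 (adjusted p = 0.000142).

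Genes that build or serve the same ribosome under other names were counted in M at 30 µg/mL, where 17.4% of all genes passed with all arrays and 8.09% without the 9. Of 4 measured ribosomal proteins with other symbols, among them DAP3 of the small subunit, 0 passed in the limma fit, and without the 9 arrays 1 fell. With all arrays 1 had an unadjusted p under 0.05, while 29.3% of all genes reached it. DAP3 changed by 0.19 ± 0.13 (adjusted p = 0.346). Of 23 assembly factors 4 fell and 3 rose (30.4%), and without the 9 arrays 2 fell and 0 rose. The 3 with the smallest p fell, namely the ribosomal RNA methyltransferase NSUN4 (-0.41 ± 0.09, adjusted p = 0.000187), the large subunit factor MALSU1 (-0.53 ± 0.12) and the pseudouridine synthase RPUSD4 (-0.55 ± 0.14). Of these RPUSD4 passed without the 9 arrays as well, and NSUN4 (adjusted p = 0.0812) and MALSU1 (adjusted p = 0.108) did not. Of 15 translation factors and messenger RNA binding proteins 2 fell and 0 rose, 13.3% and so below the share of all genes. There were 2 falls and 1 rise without the 9 arrays. SLIRP, which stabilises mitochondrial messenger RNA, fell by 1.10 ± 0.27 on the log2 scale (adjusted p = 0.00151), and by 0.38 without the 9 arrays. TUFM, the elongation factor, changed by 0.35 ± 0.14 (adjusted p = 0.0687).

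Of 16 mitochondrial aminoacyl-tRNA synthetases 3 rose and 1 fell in M (25%), and without the 9 arrays 1 rose. They were led by SARS2, the seryl enzyme, which rose by 0.75 ± 0.14 (adjusted p = 2.02e-05). Of 7 genes of mitochondrial transcription 1 rose and 1 fell, and without the 9 arrays 1 rose. POLRMT, the mitochondrial RNA polymerase, rose by 0.53 ± 0.14 (adjusted p = 0.00302), and by 0.52 without the 9 arrays. TFB2M, its initiation factor, fell by 0.76 ± 0.27 on the log2 scale and changed by -0.32 without the 9 arrays. Of 9 regulators of mitochondrial biogenesis 1 rose (11.1%, below the share of all genes). It was PPRC1, a coactivator of the PGC-1 family, by 0.46 ± 0.11 (adjusted p = 0.00118), and without the 9 arrays it did not pass (adjusted p = 0.0574). YY1 changed by -0.24 ± 0.14 (adjusted p = 0.256). The median change in M was 0.0058 for the proteins with other symbols, -0.03 for assembly factors, -0.10 for translation factors, 0.01 for synthetases, -0.11 for transcription and -0.06 for regulators, beside -0.23 for the members and 0.01 for all genes. The difference between these lists was not tested.

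Many members share a start region with a gene on the opposite strand. Of the 68 members with a promoter, 17 (25%) have such a neighbour whose start lies within 1000 bases, against 10.3% of 15843 protein-coding genes. The pairs include MRPL18 with TCP1, a chaperonin subunit gene, 210 bases apart, MRPL32 with the proteasome gene PSMA2 (202), MRPS12 with SARS2 (181), and the members MRPL46 and MRPS11 with each other (320). Of the 17, 8 fell in M at 30 µg/mL, where 34 of all 76 members and 6.87% of all genes fell. Of the partners of those 8 genes 1 fell, 1 rose and 6 did not pass, where 17.4% of all genes passed. Neither count was tested against these shares. With the 9 arrays left out, 4 of these members fell, with 1 partner that rose and 3 that did not pass. There 17 of all 76 members fell and 8.09% of all genes passed. TCP1 fell beside MRPL18, by 0.93 ± 0.33 on the log2 scale (adjusted p = 0.0336), and changed by -0.08 without the 9 arrays. SKA3, a kinetochore gene, rose beside MRPL57, by 0.22 ± 0.07 (adjusted p = 0.0163). PSMA2 changed by -0.24 ± 0.11 beside MRPL32 (adjusted p = 0.109), and MRPS11 by -0.15 ± 0.09 beside MRPL46 (adjusted p = 0.275). SARS2 rose by 0.75 beside MRPS12, which changed by 0.14.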

How the data were processed

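Total RNA of HepG2 flasks was read on Illumina HT-12 v4 bead arrays. Per the submitters' processing notes the authors used beadarray (2.4.1) under R (2.14.0), and they deposited linear probe intensity. For background correction and normalization the step is not stated there. Deposited intensity has a median of 98.4 on each array and the sorted arrays nearly coincide, so no further normalization was applied and log2 values were analysed. Such values cannot show a change in total RNA. Of 48107 probes 30113 have 1 symbol in the platform annotation, 8 several and 17986 none. Each of 20046 genes was read by its brightest probe. No detection p-value was used, the number of arrays limits the precision, and 0 pairs of arrays were identical.

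Groups come from the labels. In 1 array of material M the title and the labelled dose disagree, and it entered no comparison. The test was that of limma (version 3.58.1, R 4.3.3), with lmFit and eBayes in a single fit of the 25 groups without covariates (96.2 total degrees of freedom), and Benjamini-Hochberg adjustment over all genes within each comparison and a threshold of 0.05. The 24 comparisons with control share the same 8 control arrays. The members and lists were chosen with earlier results of these data known. Members named in the text are, per material at 30 µg/mL, the up to 4 largest rises and 4 largest falls that passed, or the 2 with the smallest p, the 8 that passed most often, the 5 largest F, the 3 smallest adjusted p for 30 against 0.3 µg/mL, the MRPS18 paralogs, members whose probes disagree, and 3 genes of each other list. Other genes were named after their values were seen, among them MRPS23, MRPS31, MRPS33, MRPS25 and the promoter partners. The fit was also run on simulated data for the comparison of M at 30 µg/mL with control (20046 genes). It called 92 of 100 genes given a log2 change of 0.5 and 100 of 100 given 1, beside 8 false calls. The simulated noise was independent between genes and arrays, with no arrays standing apart together. These numbers therefore do not describe calls that rest on the 9 arrays. Whether equal replicate numbers pair arrays was checked by the correlation of their deviations from group means. It averaged 0.0102 over 1320 pairs of equal number and 0.00381 over 5469 others, so numbers were not used as pairs. Promoters and neighbours come from RefSeq tables on GRCh38.p14, and MRPL2, MRPL10, MRPL13, MRPL15, MRPL21, MRPL23, MRPL35 and MRPS28 had no entry used. Tables were handled with pandas 2.3.3 and drawn with matplotlib 3.10.9 in Python 3.11.15. The alternatives are given after the report; leaving out the 9 arrays was chosen after seeing the data.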

Additional observations from a re-analysis of the deposited data

Results flagged for a closer look

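In groups of 4 to 8 arrays the highest or lowest array was set against the rest by Dixon's gap over range. Of 107 sets of values tested, 13 had an array beyond the 95% limit, where chance gives about 5% for independent and unselected sets. The sets here are neither, since the subunit medians share arrays and the single members were chosen. The 5% is therefore no measure of excess. For subunit medians of the log2 difference from the control mean these were the large subunit in replicate 3 of A at 30 µg/mL (-0.27, the next at -0.12), the large subunit in replicate 5 of D at 30 µg/mL (0.078, next -0.05), and the small subunit in replicate 1 of B at 3 µg/mL (0.14, next 0.07), replicate 2 of H at 0.3 µg/mL (-0.044, next 0.01), replicate 3 of L at 0.3 µg/mL (-0.26, next -0.07) and replicate 1 of L at 30 µg/mL (-0.30, next -0.10). Of these 6 arrays, those of A and L also stand apart over all genes.

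For single members the log2 intensity of 1 array lay apart in 7 cases. MRPL18 was at 9.46 in replicate 1 of I at 30 µg/mL, with the next array at 9.74. MRPL30 was at 6.53 in replicate 3 of A (next 7.55), MRPL22 at 9.17 in replicate 3 of M (next 9.56) and MRPS18B at 9.09 in replicate 2 of H (next 10.05), all at 30 µg/mL and all in arrays that stand apart over all genes. Among the controls, MRPL18 was at 9.82 in replicate 8 (next 10.13), MRPS23 at 8.34 in replicate 6 (next 8.86) and MRPL2 at 9.12 in replicate 2 (next 8.90). The causes were not tested.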

How the results depend on the processing

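Over 84 named changes and 8 alternatives, 515 estimates stayed on their side of the threshold, 143 lost and 14 gained significance, and none changed sign. With dim genes left out, the trend and robust prior, or only the compared groups, the estimate is the same by construction. There its sign could not change, and most named changes were picked as large ones in these same data. Of the 84, 59 lost it with only the compared groups in the fit, 35 without the 9 arrays, 26 with array weights, 13 with the mean of probes and 7 with the replicate block. Leaving out arrays in turn (80 refits) gave 1540, 151 and 14, and arrays at 3 µg/mL were not left out singly. Counts depended on the spread estimate and on few arrays, and the number of arrays per group limits what can be called. Numbers below are members past the threshold. Each setting refits all genes, so the share of all genes called moves as well. In B at 30 µg/mL that share was 0.743% with all arrays and 4.27% without the 9. The counts below are therefore not particular to the members.

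Leaving out 1 array gave 2 to 13 in A, 0 to 3 in B, 0 to 3 in C, 0 in D, 3 to 30 in H, 1 to 5 in I, 0 to 10 in L and 16 to 45 in M at 30 µg/mL. It gave 15 to 26 over all materials at 3 µg/mL, 15 to 31 at 0.3 µg/mL, 10 to 33 for 30 against 0.3 µg/mL, 28 to 47 for M against B, 0 for C against D, 8 to 18 for C against L, 0 to 8 for D against L and 57 to 65 for the F test.

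With only the compared groups in a fit, counts were 2 in A, 1 in H, 0 in L and 9 in M at 30 µg/mL, 13 at 3 and 10 at 0.3 µg/mL over all materials, 4 for 30 against 0.3 µg/mL, 25 for M against B, 3 for C against D, 0 for C against L, 0 for D against L and 40 for the F test. With array weights they were 11 in B, 4 in C, 9 in H, 14 in I and 23 in M, 57 at 3 and 46 at 0.3 µg/mL, 12 for 30 against 0.3 µg/mL, 2 for C against D and 10 for D against L. Without the 9 arrays they were 11 in B, 4 in C, 2 in H, 11 in I and 19 in M, 49 at 3 µg/mL, 5 for 30 against 0.3 µg/mL, 1 for C against D and 4 for D against L. With genes below the median level left out they were 1 in B, 1 in C, 34 at 0.3 µg/mL, 31 for 30 against 0.3 µg/mL and 7 for D against L. The mean of a gene's probes gave 3 in I and 3 for D against L, and quantile normalization of gene values 4 for D against L. The causes were not tested.

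The correlation of deviations differed little between equal and unequal replicate numbers, which cannot show that the numbers pair no arrays. With the replicate number as a block, 37 members passed in M and 3 for D against L. No other count moved by over 1.5 times under the block, and limma's trend and robust prior moved none.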

Other observations

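The array of material M whose labels disagree on the dose entered no comparison. Its median log2 difference from the control mean was 0.02 over the large subunit genes and -0.13 over the small subunit genes. MRPL18 was at 9.75, MRPL22 at 9.75, MRPL30 at 7.78, MRPL39 at 8.57, MRPL42 at 8.14 and MRPL52 at 8.27 log2 intensity.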
